A study of Mus musculus with 6 samples.

Results

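The transcription factor Nrf2 and 9 genes of its antioxidant pathway were followed in retinal ganglion cells (RGCs), the projection neurons of the retina, between the embryonic and the early postnatal mouse. The members were chosen by gene symbol, and all 10 of them were found among the 24060 genes of the count table. All 10 also passed the filter on low counts, as did 16449 genes in all. RNA-seq had been performed on 3 samples from embryonic day 18 (E18; replicates 1, 3 and 4), when RGCs are known to extend axons readily, and on 3 samples from postnatal day 5 (P5; replicates 6, 8 and 9), when they are known to do so poorly. All samples came from C57BL/6 mice, and no mutation or treatment is named for either age. Retinas had been dissociated with papain, macrophages had been removed with antibodies, and RGCs had been held on dishes coated with antibodies against CD90 (Thy1). How many animals went into a sample is not given, so p-values measure the spread between these samples, which may be technical in part. The name of the column for E18 replicate 1 also carries the numbers 2 and 5, and whether it pools several preparations is not stated.

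Nrf2, encoded by Nfe2l2, is made continuously and held in the cytoplasm by Keap1, which hands it to the Cul3 ubiquitin ligase for degradation. Oxidants and electrophiles modify cysteines of Keap1, Nrf2 then accumulates, pairs with a small Maf protein such as MafG, and binds antioxidant response elements in its target genes. The targets make and recycle glutathione (Slc7a11, Gclc, Gclm), support the thioredoxin and peroxiredoxin systems (Txnrd1, Srxn1), reduce quinones (Nqo1) and degrade heme (Hmox1). Since Nrf2 is controlled largely at the level of the protein, the RNA of Nfe2l2 is not a measure of its activity. In neurons, the pathway is generally described as weaker than in glia.

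The count totals per sample ranged from 81213639 to 114512853. The 15 RGC markers were all tested, with levels in CPM (read counts scaled to a common library size with TMM normalization). They summed to 9883 to 11657 CPM at E18 and to 10043 to 11165 CPM at P5, with 4 higher and 5 lower at E18. Much of the sum was Tubb3, Nefl and Gap43, with means of 2565.2, 1814.5 and 1772.6 CPM at E18. Thy1, the antigen used for panning, was among the 5 lower, with a mean of 247 CPM at E18 and 553 CPM at P5 (log2 fold change -1.16). These genes were named after their values were seen. Retinal progenitor markers reached 188, 129 and 32.4 CPM in E18 replicates 1, 3 and 4, against 21.6 to 30.0 CPM at P5, with 7 of 12 higher at E18 and none lower. The 14 dividing-cell markers summed to 377, 157 and 100 CPM in the same E18 samples and to 79.3 to 101 CPM at P5, so that E18 replicate 1 had the highest sum for both lists. In bulk RNA, fewer cells of a type and less RNA per cell cannot be told apart.

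Of the 10 members, 5 were lower at E18 (Nqo1, Srxn1, Slc7a11, Gclm and Nfe2l2), 2 were higher (Hmox1 and Txnrd1), and 3 did not pass the test (Mafg, Gclc and Keap1). The test was the quasi-likelihood (QL) test of edgeR, with p-values adjusted over all genes after Benjamini and Hochberg and a threshold of 0.05. These 7 calls stand against 43.4% of all genes tested, 20.8% higher and 22.5% lower at E18. The ages did not overlap in 8 of 10 members, against 56.1% of all genes tested. The median log2 fold change of the members (E18 over P5, so that a negative value is lower at E18) was -0.22, and that of all genes tested was 0.0047. Mafg was without overlap but did not pass the test. With 1 sample omitted at a time, between 3 and 6 members passed, with 3 without E18 replicate 3 or P5 replicate 6 and 4 without E18 replicate 1. Nqo1, Srxn1 and Gclm passed in each of these 6 fits.

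**Figure D1:**
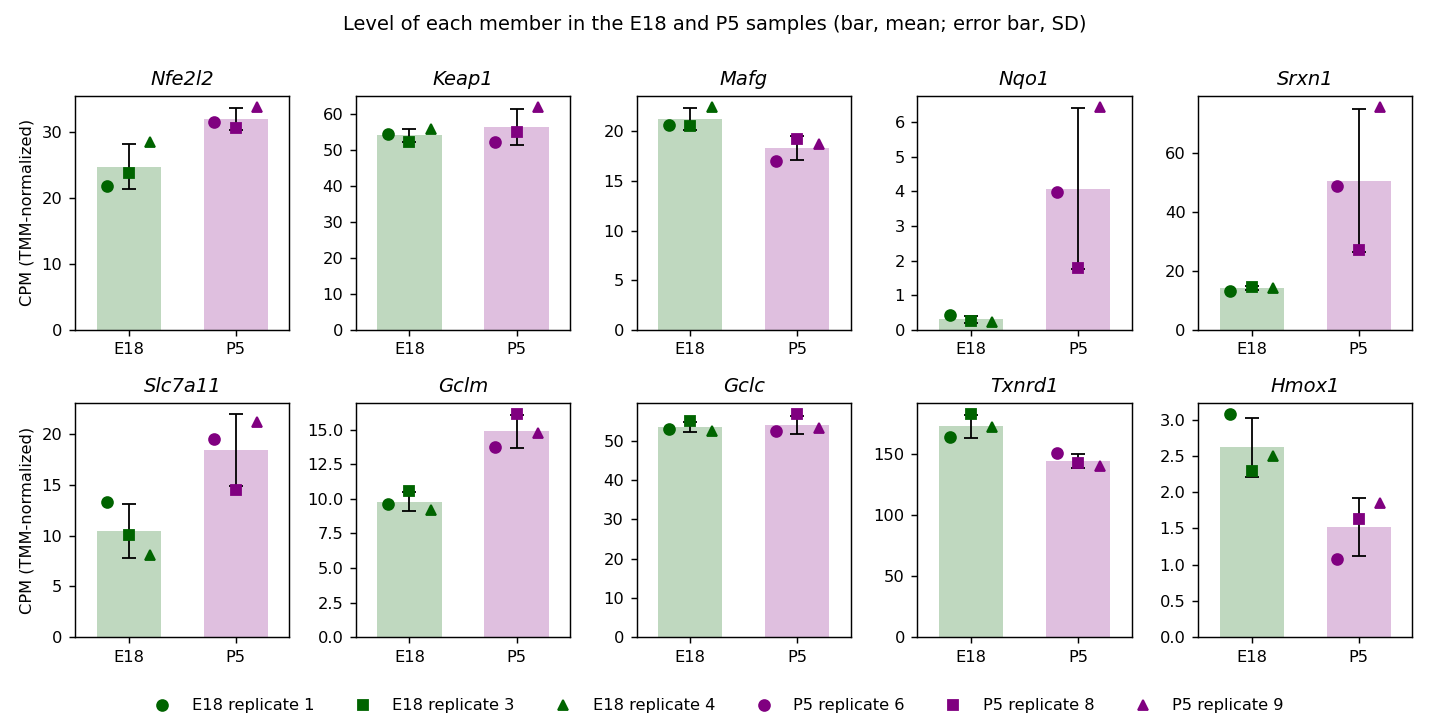
Level of the 10 members in each sample, in TMM-normalized CPM on linear axes that start at 0, with a separate scale for each gene. Bars are means of 3 samples, error bars are SD and symbols mark the replicates. Nqo1 and Srxn1 were low in all E18 samples and spread widely among the P5 samples, whereas Gclc and Keap1 lay at one level at both ages.

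**Figure D2:**
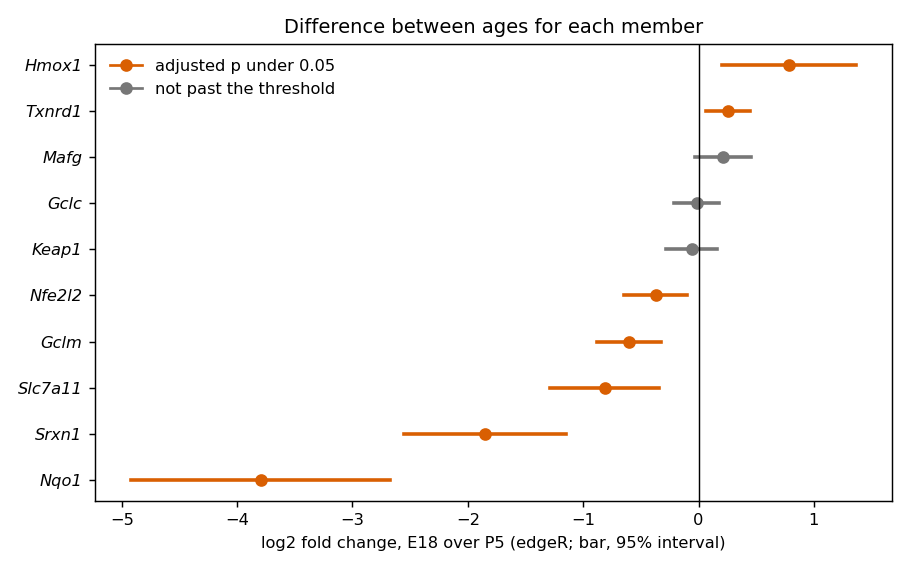
Log2 fold change of each member, E18 over P5, from edgeR's quasi-likelihood fit, with 95% intervals of the fitted model. Members past the threshold are in orange and the others in gray, and Nqo1 at -3.80 and Hmox1 at 0.78 are the ends of the range.

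The members differed widely in level. Divided by the exon length of the gene, Txnrd1 was the most abundant at E18, with 24.4 ± 1.33 CPM per kilobase (SD, n = 3 samples). Gclc followed with 14.2 ± 0.357, Keap1 with 11.5 ± 0.385, Nfe2l2 with 6.53 ± 0.909, Srxn1 with 4.97 ± 0.241 and Mafg with 3.78 ± 0.195 CPM per kilobase. Gclm with 1.56 ± 0.111 and Hmox1 with 1.50 ± 0.232 CPM per kilobase did not differ beyond their spread. Slc7a11 had 0.752 ± 0.190 CPM per kilobase, and Nqo1 was lowest with 0.189 ± 0.0646. At P5, Txnrd1 (20.4 ± 0.781 CPM per kilobase) was again highest in the mean, but Srxn1 had moved up to 17.9 ± 8.63, a spread that reached the levels of Txnrd1, Gclc (14.4 ± 0.604) and Keap1 (11.1 to 13.2 in the 3 samples). Nqo1 had moved up to 2.63 ± 1.50 CPM per kilobase, which overlapped Mafg (3.27 ± 0.207), Gclm (2.36 ± 0.186) and Slc7a11 (1.32 ± 0.253), and Hmox1 was lowest at 0.868 ± 0.225. The order at P5 therefore differed from that at E18 mainly in Srxn1 and Nqo1.

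The letters that Nrf2 and its Maf partners recognize were sought in the promoters of the members. RefSeq promoter sequences on GRCm38 (mm10) that cover 250 bases before and 50 after a start site were matched for 8 of 10 members. Hmox1 and Gclc were not matched. The antioxidant response element core TGACNNNGC, read on both strands, was present for 5 of these 8 members, for 12.4% of all 32851 promoter windows and for 16.6% of the tested genes with a sequence. With an A also required directly after the core, only Txnrd1 among these 8 members had a match. Such a match was present for 3.04% of all windows and for 3.26% of the tested genes with a sequence. Each match of the core is printed 5′ to 3′ on the strand that holds it, with the core in capitals. The lines show which members carry the core close to their start.
Nfe2l2: cccaccTGACTCCGCcatgcc
Gclm: gagagtTGACGGTGCgcccgg
Mafg: ccgggtTGACCGTGCtcctgc
Txnrd1: tcagaaTGACAAAGCaaaaat
Srxn1: tcactcTGACCTAGCtgccca
The core of Nfe2l2 (chr2:75704895-75704903, minus strand) lay 232 bases before the start site, that of Gclm (chr3:122245423-122245431, minus strand) 126 bases before it and that of Mafg (chr11:120633761-120633769, plus strand) 214 bases before it. Txnrd1 had the core in 1 of its 3 start windows, 84 bases before the start (chr10:82859114-82859122, minus strand). In Srxn1 the core lay 28 bases downstream of the start (chr2:152105552-152105560, minus strand). No match was found in the windows of Nqo1, Slc7a11 and Keap1, which says only that these letters are not within them. The members with the core were found among those lower at E18 (Nfe2l2, Gclm, Srxn1), higher (Txnrd1) and not past the test (Mafg), and a match of letters does not show binding.

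Of the regulators among the members, only Nfe2l2 passed the test, with a small difference. Nfe2l2 lies on the minus strand of chromosome 2 (ENSMUSG00000015839.6, mm10, 75675513 to 75704641). It had 21.9, 23.9 and 28.6 CPM in E18 replicates 1, 3 and 4, and 31.6, 30.7 and 33.9 CPM in P5 replicates 6, 8 and 9. Every E18 sample was below every P5 sample, with E18 replicate 4 near the P5 range. The log2 fold change was -0.37 (SE 0.121, edgeR QL adjusted p = 0.0360), and the call was lost without E18 replicate 1, E18 replicate 3, P5 replicate 6 or P5 replicate 9 (adjusted p of 0.0203 to 0.151 in edgeR over the fits with a sample left out).

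Keap1, the sensor that holds Nrf2 (ENSMUSG00000003308.15, chromosome 9, 21229730 to 21239361, minus strand), had 54.2, 52.1 and 55.7 CPM at E18 and 52.2, 54.8 and 61.9 CPM at P5. The ages overlapped, and the log2 fold change was -0.060, with a 95% interval of -0.28 to 0.16 (edgeR QL adjusted p = 0.643). Of the exon bases of Keap1, 10.9% are shared with the antisense gene Gm16754, whose reads cannot be told apart where the counting ignored strand. Mafg, which encodes a small Maf partner of Nrf2 (ENSMUSG00000051510.13, chromosome 11, 120625117 to 120633600, minus strand), had 20.6, 20.6 and 22.5 CPM at E18 and 17.03, 19.3 and 18.7 CPM at P5. All E18 samples of Mafg were above the P5 samples, by 0.21 on the log2 scale with an interval of -0.029 to 0.45, which did not pass the test (edgeR QL adjusted p = 0.136). The neighbouring gene Sirt7 shares 2.21% of its exon bases.

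Nqo1, which encodes a reductase that protects cells from quinones and is widely used as a readout of Nrf2, differed most of the 10 members between the ages. The gene (ENSMUSG00000003849.8, chromosome 8, 107388225 to 107403206, minus strand) had 34, 27 and 21 reads in E18 replicates 1, 3 and 4, and 354, 176 and 607 reads in P5 replicates 6, 8 and 9. These correspond to 0.410, 0.241 and 0.232 CPM at E18 and to 3.99, 1.79 and 6.45 CPM at P5. The ages were far apart, while the P5 samples differed among themselves by 3.61-fold from lowest to highest. Nqo1 was 13.9-fold higher at P5 by the ratio of the means, with a log2 fold change of -3.80 (SE 0.493, edgeR QL adjusted p = 0.000806), which ranged from -4.17 without P5 replicate 8 to -3.30 without P5 replicate 9. Its mean over all samples stood at percentile 25.4 of the genes tested.

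Srxn1 encodes sulfiredoxin, which restores peroxiredoxins that hydrogen peroxide has overoxidized. The gene (ENSMUSG00000032802.8, chromosome 2, 152105516 to 152111376, plus strand) was even at E18, with 13.3, 14.6 and 14.1 CPM. At P5 it had 48.8, 27.2 and 75.8 CPM in replicates 6, 8 and 9, a range of 2.79-fold. Srxn1 was 3.61-fold higher at P5 by the ratio of the means (log2 fold change -1.85, SE 0.308, edgeR QL adjusted p = 0.00219), with a log2 fold change of -2.17 without P5 replicate 8 and -1.44 without P5 replicate 9.

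Slc7a11 encodes xCT, the transporter that exchanges glutamate for the cystine from which glutathione is made. It had 13.3, 10.1 and 8.05 CPM in E18 replicates 1, 3 and 4 and 19.5, 14.4 and 21.2 CPM in P5 replicates 6, 8 and 9. The ages did not overlap, but E18 replicate 1 and P5 replicate 8 lay close together. The gene (ENSMUSG00000027737.10, chromosome 3, 49892526 to 50443614, minus strand) was lower at E18 by a log2 fold change of -0.81 (SE 0.209, edgeR QL adjusted p = 0.0139). The call was lost without E18 replicate 3 (adjusted p = 0.0522 in edgeR) or P5 replicate 6 (adjusted p = 0.0566 in edgeR).

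Among the P5 samples, replicate 9 was highest and replicate 8 lowest for Nqo1, Srxn1, Slc7a11 and Nfe2l2, 4 of the 5 members that were lower at E18. The same order, replicate 9 above 6 above 8, was found in 46.9% of the 3709 genes lower at E18 and in 22.1% of all genes tested, so it is widespread among genes that are higher at P5. Over all RGC markers, whichever way they differed between the ages, the order was mixed. Of 15, 5 followed replicate 9 above 6 above 8 (Nefl, Nefm, Nefh, Thy1 and Slc17a6). The reverse order, with replicate 8 highest, was found in 6 (Pou4f1, Pou4f2, Pou4f3, Isl1, Ebf3 and Tubb3), and 4 had another order. Of the 5 RGC markers lower at E18, Nefl, Nefh, Thy1 and Slc17a6 followed the order of these members and Pou4f3 had the reverse. As examples named after their values were seen, the neurofilament gene Nefh had 55.9, 41.3 and 96.8 CPM in P5 replicates 6, 8 and 9, and the transcription factor gene Pou4f1 had 536, 712 and 483 CPM.

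Amacrine and bipolar markers differed within their lists. The 11 amacrine markers summed to 1494 to 1709 CPM at E18 and to 1791 to 2006 CPM at P5, but 5 of 11 were higher at E18 and 1 was lower, with a median log2 fold change of 2.43. The gene that was lower, Calb2, made up much of the sum, with a mean of 819 CPM at E18 and 1328 CPM at P5. Tfap2b, higher at E18, had 47.5, 119 and 1.62 CPM in E18 replicates 1, 3 and 4 and 1.02 to 1.55 CPM at P5, so that it was high in E18 replicates 1 and 3. The 9 bipolar markers summed to 56.5 to 82.1 CPM at E18 and to 84.5 to 116 CPM at P5, with 2 of 7 tested genes higher and 3 lower at E18 and a median log2 fold change of 0.61. Most of that sum was Prkca, with 40.7 to 45.5 CPM at E18 and 64.8 to 92.2 CPM at P5, and the defining bipolar genes Vsx1 and Grm6 did not exceed 0.0532 and 0.0362 CPM in any sample. These genes were named after their values were seen, and the part of such markers in the differences of Nqo1, Srxn1 and Slc7a11 was not tested.

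Glutathione is made in a first and rate-limiting step by glutamate-cysteine ligase, which has a catalytic subunit, encoded by Gclc, and a modifier subunit, encoded by Gclm. Gclm (ENSMUSG00000028124.15, chromosome 3, 122245557 to 122270732, plus strand) had 9.63, 10.6 and 9.18 CPM at E18 and 13.8, 16.1 and 14.7 CPM at P5. The samples of each age were close together and the ages clearly apart, with a log2 fold change of -0.60 (SE 0.123, edgeR QL adjusted p = 0.00529). The transcribed pseudogene Gm6061 and the gene Gm17494 share 3.88% and 4.71% of its exon bases. Gclc (ENSMUSG00000032350.9, chromosome 9, 77754535 to 77794485, plus strand) had 53.0, 55.0 and 52.4 CPM at E18 and 52.5, 56.7 and 53.1 CPM at P5. Its samples overlapped fully, and the 95% interval of the log2 fold change, -0.21 to 0.18 around -0.017, bounds the difference (edgeR QL adjusted p = 0.885). Of the subunits of one enzyme, Gclm thus passed the test and Gclc did not, and whether they differed from each other was not tested.

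The members higher at E18 were Txnrd1 and Hmox1. Txnrd1 encodes the cytosolic thioredoxin reductase, a selenoprotein that keeps thioredoxin reduced. The gene (ENSMUSG00000020250.10, chromosome 10, 82833951 to 82897712, plus strand) had 164, 183 and 172 CPM in the E18 samples and 151, 143 and 140 CPM in the P5 samples, without overlap. Its log2 fold change was small at 0.26 (SE 0.0844, edgeR QL adjusted p = 0.0362). The call was lost in every fit with a sample left out other than that without P5 replicate 8 (adjusted p up to 0.150 in edgeR, without E18 replicate 3).

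Hmox1 encodes heme oxygenase-1, which degrades heme to biliverdin, iron and carbon monoxide and is strongly inducible in macrophages and glia. The gene (ENSMUSG00000005413.8, chromosome 8, 75093621 to 75100589, plus strand) had 255, 257 and 226 reads in E18 replicates 1, 3 and 4 and 96, 160 and 174 reads in P5 replicates 6, 8 and 9. These correspond to 2.29 to 3.07 CPM at E18 and to 1.08 to 1.85 CPM at P5. The E18 samples were all above the P5 samples, with a log2 fold change of 0.78 (SE 0.257, edgeR QL adjusted p = 0.0361). The call held without P5 replicate 9 and was lost when any other single sample was left out (adjusted p of 0.0350 to 0.113 in edgeR).

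The summed levels of some marker lists of other cells were also higher at E18, as Hmox1 was. The 11 markers of microglia and macrophages summed to 4.91 to 5.35 CPM at E18 and to 3.64 to 3.74 CPM at P5, with 1 of 9 tested genes (Itgam, named after its values were seen) higher at E18, none lower and a median log2 fold change of 0.20. Their defining gene Tyrobp did not exceed 0.0331 CPM in any sample. The 12 markers of Müller glia and astrocytes summed to 500 to 602 CPM at E18 and to 475 to 512 CPM at P5. Of 10 tested genes, 3 were higher and 1 was lower at E18, with a median log2 fold change of 0.38. Gfap, also named after its values were seen, did not exceed 0.117 CPM, and a single gene does not stand for its list. The 9 oligodendrocyte markers summed to 75.0 to 77.6 CPM at E18 and to 40.1 to 63.6 CPM at P5, with 1 of 7 tested genes higher, 2 lower and a median log2 fold change of 0.15. The 9 vascular markers summed to 16.4 to 72.5 CPM at E18 and to 14.6 to 17.8 CPM at P5, with 1 of 7 tested genes higher and 3 lower, and its median log2 fold change of -0.21 had the opposite sign to the sum. The 7 erythroid markers, of which 1 was tested and did not pass, summed to 1.59 to 1.82 CPM at E18 and to 0.699 to 1.28 CPM at P5, with 3 of the 7 at 0 in all samples. Of the lists just described, only the glial and vascular sums overlapped between the ages. The dividing-cell sums overlapped as well, with 100.3 CPM in E18 replicate 4 and 100.6 CPM in P5 replicate 8. E18 replicate 1, with the most Hmox1, also had the highest sums of progenitor and dividing-cell markers. E18 replicate 3 had the next-highest sums of both lists but the least Hmox1 of the E18 samples. The order of Hmox1 thus differed from that of these sums only between E18 replicates 3 and 4, whose Hmox1 levels lay close together. So few samples cannot show whether Hmox1 followed these sums. Without E18 replicate 1, the log2 fold change of Hmox1 was 0.66 (adjusted p = 0.113 in edgeR). The part of these cells in the difference of Hmox1 was not tested.

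**Figure D3:**
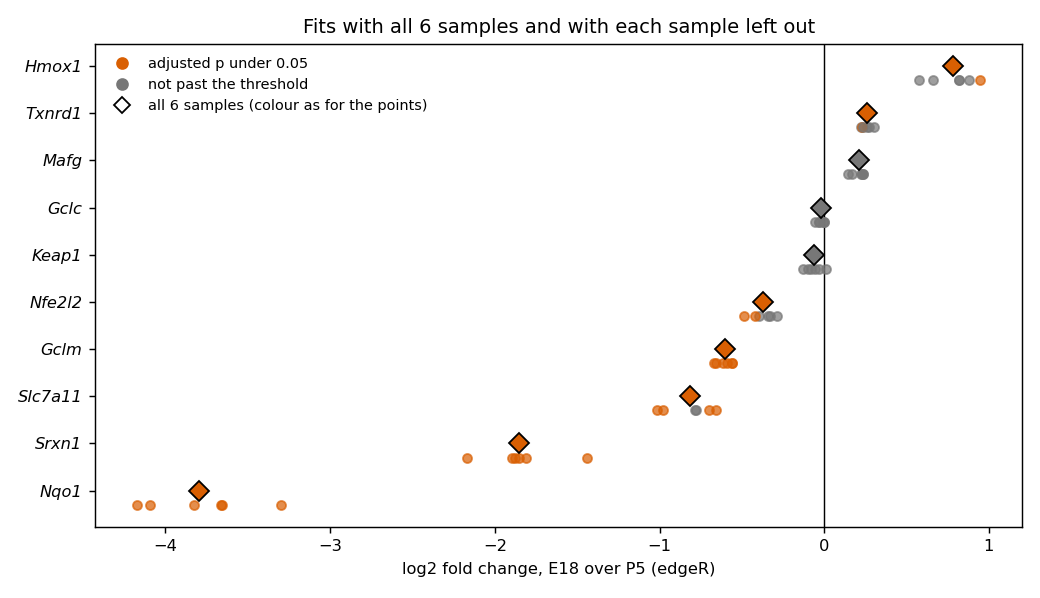
Log2 fold change of each member, E18 over P5, from the fit of all 6 samples (diamonds) and from the 6 fits that each left out a sample (circles below them), in orange where the adjusted p was under 0.05. Nqo1, Srxn1 and Gclm stayed past the threshold in all fits shown, and Keap1 was the member whose sign changed, to 0.012 without P5 replicate 9.

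The genes around the members were read in lists by role. Calls in these lists and in the marker lists stand against 43.4% of all genes tested, 20.8% higher and 22.5% lower at E18. The median log2 fold change of all genes tested was 0.0047, and no list was tested as a set. Of 12 genes for Nrf2 relatives, partners and degradation, 5 were higher at E18, 1 was lower and 6 did not pass the test, with a median log2 fold change of 0.081. The genes that were higher include the competitors of Nrf2 for its sites and the small Maf genes. Bach1, a heme-sensing repressor of Hmox1 and other Nrf2 targets, had 130, 152 and 141 CPM at E18 and 66.1, 87.0 and 50.1 CPM at P5. The samples of the ages were well apart, with a log2 fold change of 1.06 (SE 0.180, edgeR QL adjusted p = 0.00239). Its relative Bach2 had 56.2 ± 3.50 CPM at E18 and 20.1 ± 7.33 CPM at P5 (SD, n = 3 each; log2 fold change 1.49).

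The small Maf proteins lack an activation domain of their own and pair with either Nrf2 or Bach proteins. Maff had 15.7, 16.3 and 16.7 CPM at E18 and 3.44, 2.57 and 1.83 CPM at P5, a log2 fold change of 2.63 (SE 0.222, edgeR QL adjusted p = 0.000166), the largest of the 12 genes. Mafk had 13.4, 11.6 and 12.1 CPM at E18 and 6.51, 6.72 and 3.81 CPM at P5, a log2 fold change of 1.12. The member Mafg, described above, did not pass the test. The ligase scaffold Cul3 did not pass the test (207 ± 10.6 CPM at E18 against 225 ± 19.1 at P5). Sqstm1, whose product p62 binds Keap1 and is itself a Nrf2 target, was the gene of the list that was lower at E18, with a log2 fold change of -0.51. The remaining gene higher at E18 was the kinase gene Gsk3b (log2 fold change 0.33), named after its values were seen. The calls of Bach1, Bach2, Maff, Mafk and Sqstm1 held under all 12 alternatives.

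**Figure D4:**
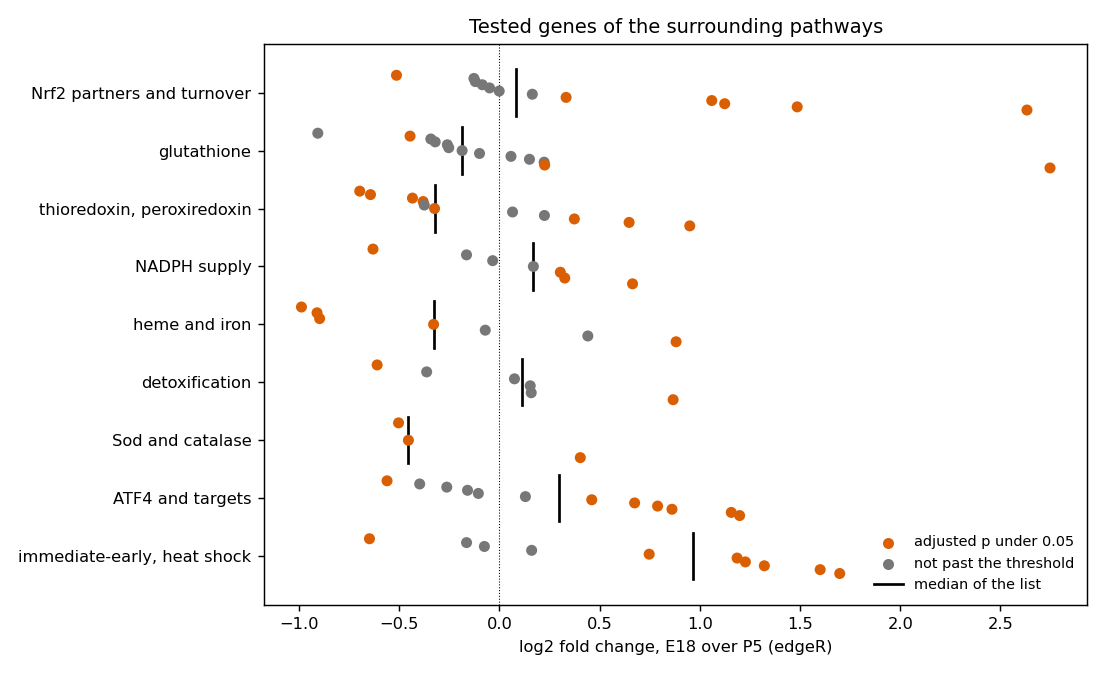
Log2 fold change, E18 over P5, of every tested gene in 9 lists by role, in orange where the adjusted p was under 0.05, with the median of each list as a black line. Maff lies at 2.63 in the top list, and all 9 lists held genes on either side of 0.

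Among 13 genes for glutathione synthesis, recycling and use, 2 were higher at E18, 1 was lower and 10 did not pass the test, with a median log2 fold change of -0.19. Slc3a2, the heavy chain that carries xCT to the membrane, had 82.1, 82.9 and 77.6 CPM at E18 and 69.2, 69.0 and 69.2 CPM at P5. It was above P5 in all E18 samples by 0.23 on the log2 scale (edgeR QL adjusted p = 0.0496), the opposite direction to Slc7a11, although its call was lost under 8 of 12 alternatives. Glutathione synthetase Gss (8.43 to 9.87 CPM at E18 and 7.31 to 9.82 at P5) and glutathione reductase Gsr (94.9 to 112 CPM and 103 to 140 CPM) did not pass the test, and Gsr passed without P5 replicate 8. The glutathione transferase gene Gstp1 was lower at E18 (log2 fold change -0.45), and the call was lost without E18 replicate 1, E18 replicate 3, P5 replicate 6 or P5 replicate 9. The other gene higher at E18 was Mgst1, a microsomal glutathione transferase gene with 0.609 CPM at E18 and 0.0892 CPM at P5 in the mean, named after its values were seen. The number of calls in the list ran from 1, without E18 replicate 3, P5 replicate 6 or P5 replicate 9, to 8 without P5 replicate 8.

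Of 11 thioredoxins and peroxiredoxins, 3 were higher at E18, 5 were lower and 3 did not pass the test, with a median log2 fold change of -0.32. The peroxiredoxin genes Prdx1 and Prdx5, which encode thioredoxin-dependent peroxidases, were lower at E18, with log2 fold changes of -0.64 and -0.70. Prdx1 had 77.5, 72.2 and 68.5 CPM at E18 and 118, 104 and 119 CPM at P5. Prdx6 (log2 fold change 0.65) and Prdx2 (0.37) were higher at E18, so peroxiredoxins were found in each direction. Thioredoxin, Txn1, had 90.0, 88.7 and 90.3 CPM at E18 and 131, 103 and 130 CPM at P5 (log2 fold change -0.43, edgeR QL adjusted p = 0.0123), a direction opposite to that of its reductase Txnrd1. The other thioredoxin reductase genes, Txnrd2 (-0.38) and Txnrd3 (-0.32), were named after their values were seen and were lower at E18. Txnip, which binds and inhibits thioredoxin, was higher at E18 (log2 fold change 0.95). The calls of Prdx2 and Txn1 were lost without E18 replicate 3, and that of Txnip without E18 replicate 1, E18 replicate 4, P5 replicate 6 or P5 replicate 9.

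NADPH is the reductant on which these enzymes draw. Of 7 genes for its supply and for the pentose phosphate pathway, 3 were higher at E18, 1 was lower and 3 did not pass the test. Their median log2 fold change was 0.17. Idh1 had 686, 772 and 795 CPM at E18 and 592, 510 and 320 CPM at P5, a log2 fold change of 0.66. Its call was lost without E18 replicate 3 or E18 replicate 4. The pentose phosphate pathway genes Pgd (0.33) and Taldo1 (0.30) were also higher, by small log2 fold changes whose calls were lost in some of the fits with a sample left out, Pgd without E18 replicate 1, E18 replicate 4 or P5 replicate 6 and Taldo1 without any one E18 sample or P5 replicate 9. Malic enzyme, Me1, was lower at E18 (38.3 ± 2.78 CPM against 59.3 ± 11.4; SD, n = 3 each; log2 fold change -0.63).

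For heme and iron, 1 of 7 genes was higher at E18, 4 were lower and 2 did not pass the test, with a median log2 fold change of -0.33. The ferritin light chain Ftl1, which stores the iron that heme oxygenase releases, had 638, 679 and 633 CPM at E18 and 375, 372 and 311 CPM at P5 (log2 fold change 0.88, SE 0.0973, edgeR QL adjusted p = 0.000422). Its many processed pseudogenes could share reads with it. Fech, which inserts iron in the last step of heme synthesis, was lower at E18 (log2 fold change -0.91). The biliverdin reductase genes Blvra (-0.99) and Blvrb (-0.90), at lower levels and named after their values were seen, were also lower at E18. Hmox2, the constitutive heme oxygenase, had 42.8 ± 1.40 CPM at E18 and 53.7 ± 6.32 CPM at P5 (SD, n = 3 each; log2 fold change -0.33), and its call was lost in each fit with a sample left out other than that without P5 replicate 8.

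The remaining lists of antioxidant genes were also split. Of 8 genes for quinone, carbonyl and conjugate handling, 6 were tested, with 1 higher at E18 (Ephx1, an epoxide hydrolase gene, log2 fold change 0.87), 1 lower (Nqo2, the relative of Nqo1, -0.61) and 4 not past the test, with a median log2 fold change of 0.11. Nqo2 had 15.0, 14.8 and 13.97 CPM at E18 and 24.5, 19.0 and 23.5 CPM at P5, without overlap. The superoxide dismutases Sod1 (log2 fold change -0.45) and Sod2 (-0.50) were lower at E18 and catalase, Cat, was higher (0.40), with the call of Cat lost without E18 replicate 3 or E18 replicate 4.

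Slc7a11 and some other members are also known targets of ATF4, the factor of the integrated stress response. Of 12 genes for ATF4 and its targets, 6 were higher at E18, 1 was lower and 5 did not pass the test, with a median log2 fold change of 0.29. Atf4 itself had 309, 320 and 309 CPM at E18 and 190, 181 and 146 CPM at P5 (log2 fold change 0.86, SE 0.110, edgeR QL adjusted p = 0.000749), with Ddit3 (1.20) and Shmt2 (0.79) in the same direction. Asns, the asparagine synthetase gene, was lower at E18 (-0.56), as Slc7a11 was. The call of Shmt2 was lost without E18 replicate 1 or P5 replicate 6.

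Of 10 immediate-early and heat shock genes that respond to tissue dissociation, 6 were higher at E18, 1 was lower and 3 did not pass the test. Their median log2 fold change was 0.97. The 3 that did not pass, named after their values were seen, were Fos (0.16) and the heat shock genes of the list, Hspa1a (-0.16) and Hspa1b (-0.075). All 6 that were higher were thus immediate-early genes. The log2 fold changes of Dusp1, Ier2 and Junb were 1.70, 1.32 and 1.23, and that of Fosb was -0.65, with a call that was lost under 4 of 12 alternatives. The sum of all 10 was 344 to 447 CPM at E18 and 194 to 323 CPM at P5. The 6 that were higher had the direction of Hmox1, Txnrd1, Maff and Mafk, Fosb had the opposite one, and the part of dissociation in those differences was not tested.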

How the data were processed

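The RNA-seq samples, 3 of E18 and 3 of P5 immunopanned RGCs, were grouped by title. The authors sequenced ribosomal RNA-depleted libraries with paired-end reads, although the labels name polyA RNA, used STAR for alignment to mm10 and HT-seq for counting on RefSeq genes, and deposited the raw counts. The strand setting and the handling of reads from near-identical genes are not given in the sources used here. The other deposited columns hold the authors' normalized counts (6 columns), the fold change of each E18 sample (3 columns) and their edgeR comparison, and none was used. Same-age samples were not copies of one library, with chi-square values of 30.5 to 141 per degree of freedom. Averaged over genes, their spread was larger than counting noise alone would give, which need not hold for each gene.

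After TMM normalization, the 16449 genes left by the filterByExpr function were fitted in edgeR 4.0.16 (R 4.3.3) and tested by quasi-likelihood. Standard errors (SE) were taken from the F statistic, and intervals are 95% intervals of the fitted model. GENCODE (mm10) gave exon lengths, overlaps and coordinates, and its exons can differ from the RefSeq exons counted.

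The members and lists were chosen with earlier results of these data known. Of each list, up to 3 genes with the largest difference in each direction were named, among those past the threshold, without overlap and at a mean level of 5 CPM or more, and 9 direct partners of members (Slc3a2, Bach1, Cul3, Mafk, Gss, Gsr, Txn1, Hmox2 and Atf4) were always named. Alternatives were DESeq2 1.42.0, the edgeR exact test, upper-quartile and RLE normalization, other filters on low counts and the omission of each sample.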

Additional observations from a re-analysis of the deposited data

How the results depend on the processing

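Tests, normalizations and filters other than those chosen left the directions of all 10 members as they were. The 5 members lower at E18 passed under each of these 6 alternatives, and Hmox1 did as well. The members higher at E18 fell from 2 to 1 without a filter on low counts, where Txnrd1 had an adjusted p of 0.0503 in edgeR, against 0.0255 to 0.150 over all its alternatives. With 1 sample omitted at a time, so that an age had 2 samples, the genes called over all ran from 4575, without E18 replicate 3, to 8796, without P5 replicate 8, with 2137 to 4135 higher and 2438 to 4661 lower at E18. The members called ran from 3 to 6, with 0 to 1 higher at E18 in edgeR (1 to 3 at an unadjusted p under 0.05) and 3 to 5 lower. Keap1 ran from -0.13 to 0.012 on the log2 scale. The calls per list ran from 5 to 7 for Nrf2 partners, 1 to 8 for glutathione, 4 to 9 for thioredoxins, 1 to 5 for NADPH, 3 to 5 for heme and iron, 2 to 3 for the dismutases and catalase, 5 to 7 for ATF4 and 5 to 6 for dissociation genes, and stayed at 2 for detoxification. The fits with a sample left out have fewer samples. No paired analysis was possible because the ages share no replicate number. With 21 to 34 reads, Nqo1 at E18 is the member most limited by depth.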
